A study of Mus musculus with 2 samples.

Results

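The regions described here are the PHLPP1 CUT&Tag peaks of IL-4-treated mouse macrophages whose summit lay within 1 kb of annotated ends of at least 2 different protein-coding genes. An end is the outermost start or the outermost 3′ end of a gene over all its transcripts in RefSeq's GRCm38.p6 annotation. Of 237724 unique IL-4 intervals on chromosomes 1 to 19, 1527 met this rule, and a further 11231 lay at the ends of 1 gene. The rule used the positions of the summits and no other value of a peak. Bone marrow cells, wild type according to the extraction note and the series' design, had been grown into macrophages with M-CSF (20 ng/ml) and were left untreated or given IL-4 (20 ng/ml) for 4 h. There was 1 library for each, both with an antibody to PHLPP1. The treatment note in the labels also names Phlpp1-deficient macrophages, of which no library was analysed here, so signal that does not depend on PHLPP1 was not measured. With 1 library a group there is no replicate error, and no difference between the libraries was tested.

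PHLPP1 is a phosphatase known for removing phosphate from AKT and other kinases, and IL-4 is the cytokine that drives macrophages to the alternatively activated state through the transcription factor STAT6. In CUT&Tag, an antibody holds a transposase at its target, and DNA near the target is cut out and sequenced, with open chromatin as a known source of unspecific cuts. Mammalian genes often lie head to head, with starts a short way apart on opposite strands. Such a divergent or bidirectional promoter usually lies in a CpG island, lacks a TATA box and serves genes that most cells use. Genes may also meet tail to tail (3′ ends facing each other) or follow each other on 1 strand, the 3′ end of the first close to the start of the second (tandem). All 3 arrangements put a peak at paired ends.

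Pairs of the head-to-head kind led the list, and the DNA between the starts is printed below for some of them. Peaks did not always lie on that stretch. They covered 0% of it at Fars2/Lyrm4, 65.9% at Arsk/Ttc37 and 100% at the other pairs shown. Of 471 members at head-to-head starts of genes that lay apart, 104 (22.1%) had the summit between the starts. The sequences below are from RefSeq promoters (GRCm38.p6, plus strand, 5′ to 3′) and run from the base after 1 annotated start to the base before the other. They were chosen from the 40 strongest members whose stretch between the starts lay wholly in that table, of 309 such members. Capitals mark matches on either strand to GGGCGG (bound by SP factors), CCAAT (the CCAAT box, bound by NF-Y), CCGGAAG (ETS factors) or GCGCATGCG (NRF1).
Fars2/Lyrm4, chr13:36117358-36117427: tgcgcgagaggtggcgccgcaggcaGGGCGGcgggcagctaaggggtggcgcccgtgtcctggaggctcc
Kdm1b/Tpmt, chr13:47043339-47043372: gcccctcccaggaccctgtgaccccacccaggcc
Fkbp3/Fancm, chr12:65073939-65074109: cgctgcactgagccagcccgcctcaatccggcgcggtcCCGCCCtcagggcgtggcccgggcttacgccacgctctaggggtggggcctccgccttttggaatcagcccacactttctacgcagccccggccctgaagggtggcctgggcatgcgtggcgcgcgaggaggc
Cryzl1/Itsn1, chr16:91729207-91729309: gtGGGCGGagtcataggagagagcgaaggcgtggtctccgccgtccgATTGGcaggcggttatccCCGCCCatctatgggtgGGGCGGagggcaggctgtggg
Npat/Atm, chr9:53536829-53536888: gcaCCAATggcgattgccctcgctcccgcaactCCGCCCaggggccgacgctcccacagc
Kbtbd3/Aasdhppt, chr9:4309618-4309742: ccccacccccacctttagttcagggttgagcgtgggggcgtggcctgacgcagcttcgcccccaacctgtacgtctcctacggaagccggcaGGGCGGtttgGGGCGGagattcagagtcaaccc
Arsk/Ttc37, chr13:76098661-76098704: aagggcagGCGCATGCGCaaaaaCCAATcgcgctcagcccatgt
Nfya/Oard1, chr17:48409821-48409956: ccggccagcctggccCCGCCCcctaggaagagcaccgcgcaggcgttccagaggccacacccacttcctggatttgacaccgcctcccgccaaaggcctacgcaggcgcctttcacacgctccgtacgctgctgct
Cwc15/Kdm4d, chr9:14500523-14500603: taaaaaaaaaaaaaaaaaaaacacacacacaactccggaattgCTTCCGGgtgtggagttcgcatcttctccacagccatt
Fars2/Lyrm4, Kdm1b/Tpmt, Fkbp3/Fancm and Cryzl1/Itsn1 are shown because they were among the 15 members of highest −log10 q. Npat/Atm and Kbtbd3/Aasdhppt are shown because their summit fell between the starts, on base 32 of the 60 and base 69 of the 125 printed. Nfya/Oard1 held the strongest untreated peak of the set. Arsk/Ttc37 and Cwc15/Kdm4d are the shown pairs with an NRF1 match and an ETS match. The stretches differed widely in composition: Fars2/Lyrm4 was 77.1% G and C with 8 CpG, Cwc15/Kdm4d 39.5% with 3 CpG, and Kdm1b/Tpmt 76.5% with 0 CpG.

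The peak lists carried few fragments. Per peak, the fragments stacked at the summit and the local background were worked back from the deposited fold and p-value. Listed IL-4 peaks had at least 3 fragments and untreated ones at least 4, and the lowest background was 1.46 times as high in the untreated list. A site with 3 fragments could thus be listed in the IL-4 library alone, and this difference in depth and background moves with every comparison of the lists below. Of the members, 564 (36.9%) had 3 or 4 fragments, and 630 (41.3%) passed q of at most 0.05. Of IL-4 peaks at the ends of 1 gene 26.3% passed, and of all IL-4 peaks 12.5%. Gene-end peaks are a poor check of cell identity: 4 of 8 macrophage marker genes had one in the IL-4 list (Cd68, Spi1, Mertk and Fcgr1, with at most 9 fragments), and so did 3 of 4 T cell genes (at most 5 fragments). The untreated list had one at 1 of 8 and 3 of 4. No marker was at a paired-end IL-4 peak.

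Paired gene ends took 0.642% of the IL-4 peaks (Wilson 95% interval 0.611 to 0.675) and 0.333% of the untreated peaks (494 of 148348, 0.305 to 0.364). These intervals, like those below, cover counting error only, and fragments copied in PCR are not independent molecules. Moving every summit along its chromosome by 5 to 100 Mb, in 20 steps, gave 0.240% for the IL-4 list (range 0.211 to 0.254) and 0.231% for the untreated list (0.213 to 0.253). The IL-4 share was thus 2.68 times its shifted value and the untreated share 1.44 times. Peaks at the ends of 1 gene were 1.66 and 1.10 times their shifted values. Among gene-end peaks, 12.0% of the IL-4 peaks and 9.54% of the untreated ones were at paired ends, against 7.75% of gene-end positions after the shifts.

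The share at paired ends rose with the strength of the peak in the IL-4 list. It was 0.388% of peaks with −log10 q under 1, 0.771% from 1 to 2, 2.45% from 2 to 3, 4.68% from 3 to 5, 12.5% from 5 to 8 and 18.4% at 8 or more (41 of 223, 13.9 to 24.0). In the untreated list it was 0.299%, 0.379%, 0.446%, 1.16%, 1.01% (1 of 99) and 0% (0 of 41, which allows up to 8.57%). With −log10 q of at least 5, 112 members remained (7.33% of them, against 0.333% of all IL-4 peaks) and 1 untreated peak at paired ends. The 112 members were 24.4% of the IL-4 gene-end peaks of that strength (20.7 to 28.5).

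**Figure D1:**
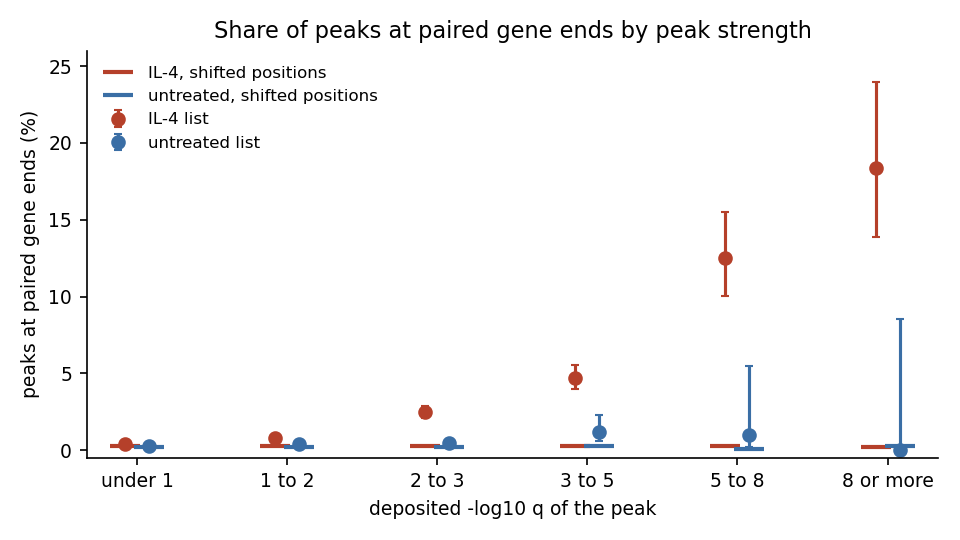
Percent of peaks at paired gene ends (y axis) by the deposited −log10 q of the peak (x axis, 6 ranges), with Wilson 95% intervals; points are the 2 lists and short bars the mean over 20 shifts. The IL-4 points rise from 0.388% to 18.4%, and the shifted values stay under 0.5%. IL-4 peaks at the ends of 1 gene, not drawn, rise from 3.75% to 59.2%.

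Most members whose strands were known lay at head-to-head starts. Strand was known for both genes of 1132 members, since RefSeq's promoter table gave it for 16457 of 20665 genes. Head-to-head starts made up 723 of these (63.9%, 61.0 to 66.6, against 37.2% after shifts), tandem ends 207 (18.3%, against 24.6%) and facing 3′ ends 145 (12.8%, against 32.5%). The others were starts on the same strand (30), a start with a 3′ end on opposite strands (23) and 3′ ends on the same strand (4). Relative to their own shifted counts, head-to-head members were 4.77 times as many, tandem members 2.07 times and facing 3′ ends 1.10 times. The same 3 values in the untreated list were 2.04, 1.13 and 1.17.

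Counted by site rather than by peak, most head-to-head pairs of the genome held a peak in the IL-4 list. Of 866 such pairs with starts at most 1 kb apart, 579 (66.9%, 63.7 to 69.9) had an IL-4 summit within 1 kb of both starts, and 173 (20.0%, 17.4 to 22.8) an untreated one. The shifted values were 16.1% and 10%. At q of at most 0.05, 347 of the 866 pairs (40.1%, 36.9 to 43.4) held an IL-4 peak and 34 (3.93%) an untreated one. With all listed peaks, tandem pairs stood at 33.4% with IL-4 (165 of 494) and 10.5% without. Facing 3′ ends stood at 16.9% (119 of 703, 14.3 to 19.9), close to the shifted 15.6%, and at 11.5% in the untreated list, with 9.68% after shifts. To set pairs beside single starts, summits within 1 kb of the midpoint of both starts were counted. By this count 68.0% of head-to-head pairs held an IL-4 peak, against 37.9% of 13134 starts with no second gene end near (37.1 to 38.7). The untreated values were 21.0% and 14.1%. Single 3′ ends stood at 18.3% against 18% after shifts.

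**Figure D2:**
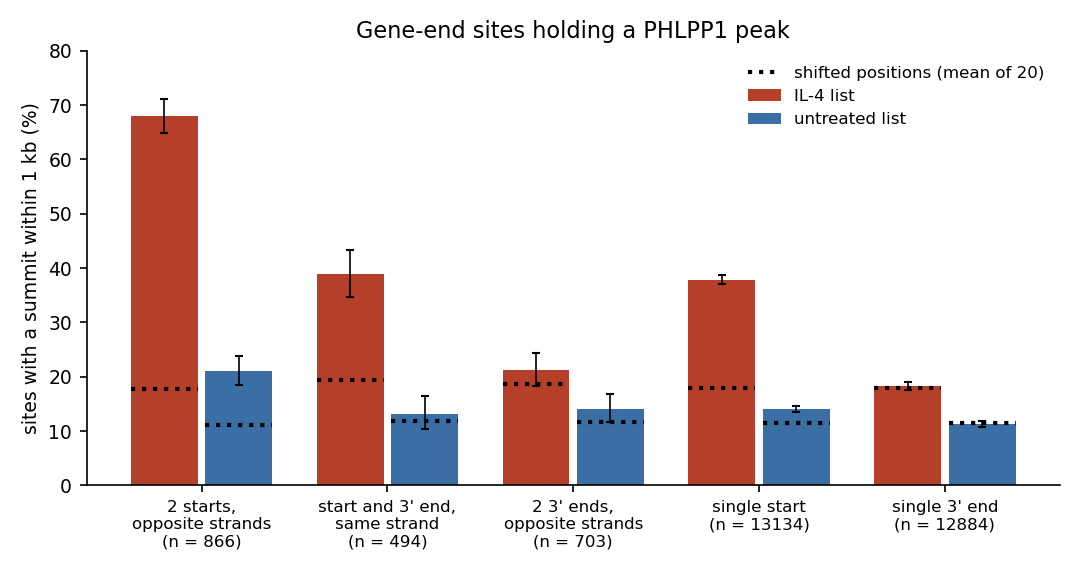
Percent of gene-end sites with a summit within 1 kb of the site's midpoint or end (y axis) for 5 kinds of site (x axis, n below each); bars are the 2 lists, thin lines Wilson 95% intervals and dotted lines the mean over 20 shifts. Head-to-head starts reach 68.0% in the IL-4 list, single starts 37.9%, and sites of 3′ ends lie near the shifted values.

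Head-to-head pairs whose genes lay apart held an IL-4 peak at 68.3% (382 of 559), and pairs whose genes overlapped at 67.4%. By distance, 63.0% of pairs with starts under 100 bp apart held an IL-4 peak, 75.2% at 100 to 199 bp, 75.8% at 200 to 299 bp, 76.4% at 300 to 499 bp and 61.0% at 500 to 1000 bp. The Wilson intervals of neighbours in this order overlapped. Peaks with q of at most 0.05 were on 36.2%, 39.2%, 45.2%, 58.2% and 43.9% of the pairs in the same order. The intervals were 30.8 to 42.1 for the closest pairs, 45.0 to 70.3 at 300 to 499 bp and 29.9 to 59.0 at 500 to 1000 bp.

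Head-to-head starts are richer in CpG than single starts, so both were compared within ranges of the observed-to-expected CpG ratio of their promoters. Below a ratio of 0.5, 21.7% of single starts and 37.8% of head-to-head pairs (14 of 37) held an IL-4 peak. From 0.5 to 0.75 the values were 49.6% and 71.9%, from 0.75 to 1 they were 59.7% and 69.4%, and at 1 or more 64.3% and 72.7%. At a ratio of 1 or more the intervals overlapped (60.8 to 67.7 and 63.7 to 80.2). For peaks with q of at most 0.05, head-to-head pairs stood above single starts in each range, with 46.4% against 34.7% at a ratio of 1 or more, where the intervals again overlapped (37.3 to 55.6 and 31.3 to 38.2). In the untreated list, 16.2% of head-to-head pairs and 11.8% of single starts held a peak below a ratio of 0.5. The values were 25.6% and 15.9% from 0.5 to 0.75, 22.2% and 16.6% from 0.75 to 1, and 24.5% and 15.7% at 1 or more. The intervals of these untreated values overlapped except from 0.5 to 0.75. The pairs compared here are those whose genes lay apart. A pair offers 2 starts to a peak and a single start 1, and the part of that in the difference was not tested.

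Summits clustered over the head-to-head midpoint. Across 559 pairs of genes that lay apart, each 100 bp step within 200 bp of the midpoint held 106 to 116 IL-4 summits per 1000 sites, against 8.14 to 11.6 after shifts. The untreated list had 23.3 to 25 there. Of 471 members at these starts, 104 had the summit between the starts (22.1%), with a median distance between starts of 111 bp. The peak itself covered both starts at 133 members (28.2%) and neither at 223 (47.3%). Of 137 untreated members at such starts, 29 had the summit between them (21.2%, 15.2 to 28.7). Those untreated peaks covered both starts at 19 (13.9%) and neither at 85 (62.0%). Among the 54 IL-4 members at these starts with −log10 q of at least 5, the summit was between the starts at 27. The peak covered both starts at 30 of the 54 and neither at 5. Their starts lay a median of 205 bp apart, and the part of that distance in these counts was not tested. Tandem members leaned to the start: 149 of 207 summits (72.0%, 65.5 to 77.7) were nearer to it than to the 3′ end, and 63 of 75 with q of at most 0.05. In the untreated list 42 of 66 were (63.6%).

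**Figure D3:**
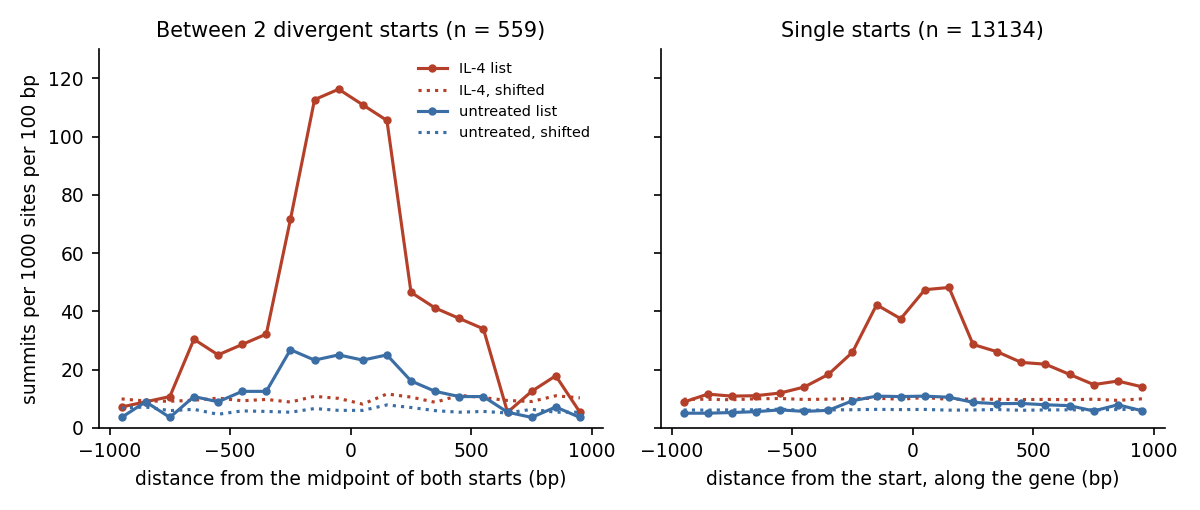
Summits per 1000 sites in steps of 100 bp (y axis) against distance in bp (x axis) from the midpoint of head-to-head starts of genes that lie apart (left, 559 sites) and from single starts (right, 13134 sites); solid lines are the 2 lists and dotted lines the mean over 20 shifts. The IL-4 line reaches 116 at paired starts and 48.2 at single starts.

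Promoter composition and motifs were not used by the rule. RefSeq promoters (250 bases before to 50 after a start, 300 bases) were matched for 670 of 754 genes of head-to-head pairs with an IL-4 member and 329 of 369 genes of pairs without one. Those with a member had a median of 63.0% G and C and a CpG ratio of 0.859, against 56.3% and 0.585 over 13556 promoters. Head-to-head promoters without a member had 61.0% and 0.850, and single starts with an IL-4 peak 60.3% and 0.727. GGGCGG was found on either strand in 74.2% of head-to-head promoters with a member, in 58.4% of those without one and in 46.7% of all. CCGGAAG went the other way, with 27.0%, 33.4% and 12.6%. CCAAT was in 46.4%, 43.5% and 40.2%, GCGCATGCG in 4.93%, 6.38% and 2.69%, and AAGATGGCG (YY1) in 5.67%, 7.90% and 2.02%. TATAAA was in 4.03%, 8.21% and 14.5%. The STAT6 pattern, TTC and GAA with 4 bases between, was in 4.03%, 4.86% and 6.61%. Single starts with and without an IL-4 peak differed as well. They had GGGCGG in 61.9% and 30.9%, CCGGAAG in 13.8% and 7.31%, and TATAAA in 10.2% and 20.3%. CCAAT was in 40.5% and 39.6% of them, GCGCATGCG in 3.91% and 1.40%, AAGATGGCG in 2.46% and 1.02%, and the STAT6 pattern in 6.09% and 7.47%. None of these strings contains another, though matches may share bases, and a match says nothing of what was bound.

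Members were wider than other IL-4 peaks, as were peaks with more fragments. The median width was 254 bp (quartiles 151 and 401), against 209 bp for peaks at 1 gene, 162 bp for peaks at no gene end and 179 bp (150 and 275) for untreated peaks at paired ends. At equal fragments, the quartile ranges of members and of peaks at 1 gene overlapped. With 8 to 10 fragments the medians were 424 bp and 419 bp, against 235 bp at no gene end. With 16 or more fragments they were 697, 684.5 and 454 bp. The widest member, 1529 bp, lay over the head-to-head starts of Cep57 and Fam76b with 10 fragments, its summit 74 and 139 bp from them. Cep57 encodes a centrosome protein. The next by width were the tandem pairs Gm20783/LOC108167694 (1365 bp, 13 fragments, 8 in untreated) and Pim3/Gm33049 (1340 bp, 9 and 8). The head-to-head pairs Kbtbd3/Aasdhppt (1271 bp, 15 and 4) and Rbks/Babam2 (1203 bp, 9 and 6) followed. Aasdhppt adds the phosphopantetheine arm to carrier proteins, and Babam2 is part of a deubiquitinase complex.

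**Figure D4:**
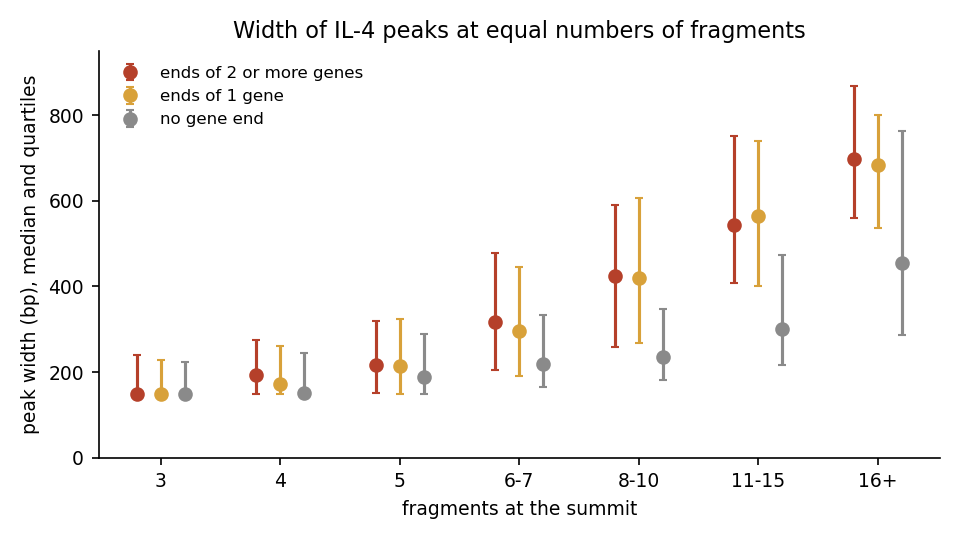
Width of IL-4 peaks in bp (y axis, median with quartiles) by fragments at the summit (x axis, 7 ranges), for peaks at the ends of at least 2 genes, of 1 gene and of none. The first 2 overlap in every range; at 8 to 10 fragments their medians are 424 and 419 bp, against 235 bp away from gene ends.

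An untreated peak overlapped 196 of the 1527 members by at least 1 bp (12.8%, 11.3 to 14.6), against 5.48% of all IL-4 peaks and 3.17% of the members after shifts. Peaks at 1 gene stood at 8.13% and peaks at no gene end at 5.30%. In the other direction, 206 of the 494 untreated peaks at paired ends overlapped an IL-4 peak (41.7%, 37.4 to 46.1), against 8.77% of all untreated peaks. The 196 members had a median of 8 fragments and the untreated peaks at them 6. The IL-4 library had more fragments at 131 of them, fewer at 38 and the same number at 27. Median widths there were 487.5 and 225.5 bp, and the summits were a median of 98 bp apart. These fragments and widths were not counted over all overlapped IL-4 peaks, so no difference between the libraries is read from them. Of the untreated peaks at the 196 members, 190 were themselves at paired ends, and 51 passed q of at most 0.05. With −log10 q of at least 5, an untreated peak overlapped 54 of 112 members (48.2%, 39.2 to 57.4) and 141 of 347 peaks at 1 gene (40.6%, 35.6 to 45.9), with overlapping intervals. Peaks of that strength at no gene end stood at 20.5% (68 of 332, 16.5 to 25.1).

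By gene pairs, the members named 1313 distinct pairs and 2545 genes, with 201 pairs holding more than 1 member and at most 3. A member in both lists was found for 265 pairs, which is 20.2% of the IL-4 pairs and 57.7% of the 459 untreated pairs. Of all 3093 pairs with ends at most 1 kb apart, 40.6% held an IL-4 summit within 1 kb of both ends. An untreated summit was at 14% of them. For head-to-head pairs these values were 66.9% and 20.0%. The part of these general rates in the 265 shared pairs was not tested. Head-to-head members were overlapped by an untreated peak at 15.5% (112 of 723), tandem members at 10.1% (21 of 207) and facing 3′ ends at 5.52% (8 of 145). Head-to-head members passed q of at most 0.05 at 50.5%, tandem members at 36.2% and facing 3′ ends at 13.8%.

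The strongest member lay at the head-to-head starts of Fars2, the mitochondrial phenylalanine tRNA ligase, and Lyrm4, a factor of iron-sulfur cluster assembly. It covered chr13:36117449-36118042 with 30 fragments at its summit (exact Poisson 95% interval 20.2 to 42.8) and −log10 q of 23.9. No untreated peak overlapped it. The summit was 306 bp from the Fars2 start, on the side of that gene, so the peak held none of the stretch printed above. Ubxn6, a cofactor of the p97 segregase, and Hdgfl2, a chromatin-binding protein, shared a peak of 30 fragments in IL-4 and 7 in untreated (2.81 to 14.4). Bckdha, the E1 alpha subunit of branched-chain keto acid dehydrogenase, and Exosc5, a subunit of the RNA exosome, had 24 fragments in IL-4 and 10 in untreated, with summits 25 bp apart.

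These members were ranked by their IL-4 −log10 q, and that choice favours a higher count in IL-4, so the direction below is no result. In 5 of the 15 strongest members no untreated peak overlapped. Beside Fars2/Lyrm4 these were Phf14/Ndufa4 (22 fragments), Hnrnpul2/Ttc9c (21), Cryzl1/Itsn1 (21) and LOC114841036/Fkbp2 (29). Ndufa4 is a subunit tied to cytochrome oxidase, and Itsn1 is a scaffold of endocytosis. Fkbp2, a prolyl isomerase of the endoplasmic reticulum, starts 24 bp from the gene model LOC114841036 on the same strand.

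The other 8 of the 15 had both peaks. Rita1/Ddx54 had 24 against 9, Alg2/Sec61b 21 against 7 and Srd5a1/Nsun2 24 against 10. Ddx54 is an RNA helicase, Sec61b a subunit of the translocon and Nsun2 an RNA methyltransferase. Psme2, a subunit of the proteasome activator PA28, and Rnf31, the catalytic subunit of the linear ubiquitin ligase, shared a peak with 22 against 5. Fkbp3/Fancm had 20 against 4, Chchd7/Plag1 20 against 6, Dcakd/Nmt1 18 against 6 and Kdm1b/Tpmt 18 against 10. Fancm is a DNA repair translocase, Plag1 a zinc finger transcription factor, Nmt1 adds myristate to proteins and Kdm1b is a histone demethylase. At Kdm1b/Tpmt the IL-4 summit lay 7 bp from 1 start and 42 bp from the other. Among the 10 with an untreated peak, the intervals of both lists overlapped at 7 and not at Ubxn6/Hdgfl2, Psme2/Rnf31 and Fkbp3/Fancm. The choice by IL-4 −log10 q favours separate intervals too. Their share over all IL-4 peaks with an untreated peak was not counted, so no difference between the libraries is read from them.

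**Figure D5:**
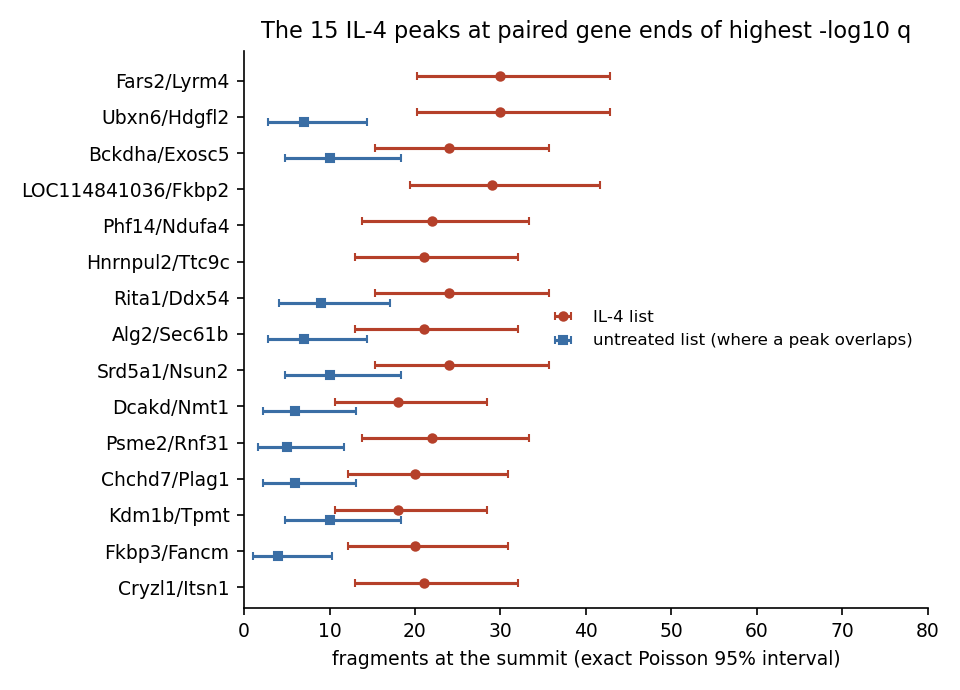
Fragments at the summit (x axis, with exact Poisson 95% intervals) for the 15 members of highest −log10 q (y axis, gene pairs). Circles are the IL-4 list and squares the untreated peak where 1 overlaps. The members were chosen by their IL-4 values, which sets the direction and favours separate intervals. The intervals of both lists overlap at 7 of the 10 with an untreated peak, and the share over all IL-4 peaks was not counted.

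Of the 8 members with the strongest untreated peaks, 3 are given above (Bckdha/Exosc5, Srd5a1/Nsun2 and Kdm1b/Tpmt, each with more fragments in IL-4). In all 8 the intervals of both lists overlapped. The choice by untreated −log10 q favours a higher untreated count, so the direction is no result here either. Nfya, a subunit of the CCAAT-binding factor NF-Y, and Oard1, which removes ADP-ribose from proteins, had 13 fragments in IL-4 (6.92 to 22.2) and 14 in untreated (7.65 to 23.5), with summits 8 bp apart between the starts. Serpini1/Pdcd10 had 13 and 11, and Hdlbp/Septin2 12 and 10. Fto, an RNA demethylase, and Rpgrip1l, a protein of the cilium base, had fewer in IL-4, 7 against 10, as did Tepsin/Ndufaf8 with 9 against 11. Plpp6/4430402I18Rik was the strongest untreated peak at paired ends without an IL-4 peak, with 10 fragments.

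Tandem members were led by Abtb1/Podxl2, with 21 fragments in IL-4 and 10 in untreated, and Esrra/Catsperz, with 16 and 5. Esrra encodes the nuclear receptor ERR alpha, a regulator of mitochondrial genes. Maz/Kif22 and Eif4a1/Senp3 had 15 fragments each and no untreated peak, with summits 45 bp from the Maz start and 19 bp from the Eif4a1 start. Maz is a zinc finger transcription factor and Eif4a1 the helicase of translation initiation. Facing 3′ ends gave weaker peaks, of which Dvl1/Tas1r3 (13 fragments) and Hdgfl2/Plin4 (9) were the strongest. Stat6, the transcription factor of the IL-4 response, had a member at its 3′ end, which faces that of Nab2. That peak, chr10:127660665-127660819, had 9 fragments (4.12 to 17.1), −log10 q of 2.90 and no untreated overlap.

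Members near 3 genes numbered 27, and 2 were near more. The strongest, at Eif4enif1/Gm51877/Sfi1, had 29 fragments over a local background of 5.40, a fold of 4.69. The next were Cox4i1/Gm27021/Emc8 with 14 fragments and Ak6/Taf9/Rad17 with 10. Cox4i1 is a subunit of cytochrome oxidase, and Ak6 and Taf9 share a start. At the shared 3′ end of the Ugt1a genes a peak had 11 fragments with a fold of 2.0.

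A list of 22 pairs known to sit close together, drawn up with earlier results of these data known, held 21 with ends at most 2 kb apart (Acat2 and Tcp1 lay 17975 bp apart). An IL-4 member was found at 16 and an untreated member at 3. Over all 3093 pairs with ends at most 1 kb apart, 40.6% held an IL-4 summit within 1 kb of both ends and 14% an untreated one, and of head-to-head pairs 66.9% and 20.0% did. Atm, a kinase of the DNA damage response, and Npat, a coactivator of histone genes, had 14 fragments in IL-4 (7.65 to 23.5) and 4 in untreated (1.09 to 10.2), at peaks that did not overlap. Tap1, a subunit of the peptide transporter, and Psmb9, a subunit of the immunoproteasome, had 10 and 7. Hspd1/Hspe1, the mitochondrial chaperonin and its partner, had 14 in IL-4 and no untreated member, and Paics/Ppat of purine synthesis had 11. No member was found at Surf2/Surf4, Col4a1/Col4a2, Sars2/Mrps12, Tbp/Psmb1 or Tk1/Afmid. The Tbp and Psmb1 ends lie 1612 bp apart, and those of the 4 other pairs under 1 kb.

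Gene families were counted by symbol among genes with an end within 2 kb of another gene's end. Of 6864 such genes, 2545 (37.1%) were at an IL-4 member and 918 (13.4%) at an untreated member. Aminoacyl-tRNA synthetases had 10 of 19 and 3, respiratory chain genes and their assembly factors 30 of 62 and 6, and RNA polymerase subunits 10 of 20 and 7. DNA replication and repair genes had 25 of 53 and 9, mitochondrial ribosomal proteins 22 of 50 and 9, proteasome genes 11 of 27 and 4, and E3 ligases 39 of 84 and 8. Solute carriers (43 of 123), zinc finger genes (27 of 85), cytosolic ribosomal proteins (15 of 42) and genes of small GTPases and trafficking (19 of 53) were below the share of all. The Wilson intervals of these 11 lists contained the 37.1% of all genes.

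Olfactory and vomeronasal receptor genes, silent in macrophages, had 3 of 22. Of the 3, Vmn1r4 shared its peak of 10 fragments with Nt5c3, a widely used nucleotidase. Histone genes had 30 of 55 and 3 in untreated, with an interval of 41.5 to 67.0, but their copies are near-identical and reads may be shared among them. Examples by list were Yars/S100pbp (9 fragments), Mrpl41/Pnpla7 (14), Polr3f/Dzank1 (14 in IL-4 and 6 in untreated), Rnf5/Agpat1 (22 and 6), Rps25/Trappc4 (10) and Slc25a40/Dbf4 (12). Yars loads tyrosine on its tRNA, Polr3f is a subunit of RNA polymerase III, and Dbf4 activates the kinase that starts replication.

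Just inside the 1 kb limit were Rgs19/Tcea2, with the second gene's end 1000 bp away and 4 fragments, and Rnf123/Gmppb at 999 bp with 5. Just outside were Brpf1/Cpne9 at 1002 bp with 17 fragments, Nop53/Ehd2 at 1003 bp with 6 and Ctdnep1/Elp5 at 1005 bp with 13.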

How the data were processed

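PHLPP1 CUT&Tag was analysed from 2 peak lists, 1 per library, with no replicates. Per the submitters' processing notes, Bowtie 0.12.8, MACS2 2.2.7.1, DiffBind and mm10 were used, in roles and order not given there. A control for peak calling is not given in the sources used here. The deposited lists give a score per peak, a fold (ratio of signal to background) and −log10 of the p-value and the q-value, all as the authors' peak caller wrote them. These values describe, rank or filter peaks within a list.

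Entries with the same interval were merged, which left 240661 of 241315 IL-4 and 149349 of 149552 untreated intervals, and chromosomes 1 to 19 were used. Fragments and local background at each summit were solved from fold and p under MACS2's Poisson formula, and whole fragments came out for 100% of peaks within 0.01. Total library depth is unknown. Gene ends came from RefSeq GRCm38.p6 (20665 protein-coding genes), and strand from its promoter table. Shares carry Wilson 95% intervals and fragments exact Poisson ones. Shifts were 20 steps of 5 Mb. The steps were tested on simulated data. Overlap meant 1 bp or more. Single ends were those with no second gene end within 2 kb. No test across peaks or libraries was made. Python 3.11.15, numpy 2.4.6, pandas 2.3.3, scipy 1.17.1 and matplotlib 3.10.9 were used.

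Members, gene lists and pairs were chosen with earlier results of these data known. Named were the 15 members of highest −log10 q, the 5 strongest per arrangement, the 8 with the strongest untreated peak, the 5 widest, the 5 strongest near 3 or more genes, the 5 strongest untreated peaks, 3 on each side of the 1 kb limit, the listed pairs, and up to 4 genes per list; the text gives part of these, and a few items are not reported here. Sequences were chosen after their values were seen. Alternatives changed the window, the q threshold, the list length, the summits, gene models, shifts, overlap, distance between ends and chromosome X.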

Additional observations from a re-analysis of the deposited data

Results flagged for a closer look

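Chromosome X was left out of the comparisons, and it too had IL-4 peaks at paired gene ends. They were 13 of 2937 peaks (0.443%, Wilson 95% interval 0.259 to 0.756), above the 0.0868% after shifts. The untreated list had 1 of 1001 (0.0999%, 0.0176 to 0.564), and these intervals overlapped. The strongest was Hsf3/Heph with 6 fragments, followed by Timm17b/Pqbp1, Ndufb11/Rbm10, Ssr4/Idh3g and Gla/Hnrnph2 with 5 each. Timm17b is part of the mitochondrial import channel and Pqbp1 binds polyglutamine. The counts are small, and the difference between the lists was not tested.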

How the results depend on the processing

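No paired analysis was possible because there was 1 library a group and no replicate numbers, and for the same reason no library could be left out. Of 34 alternatives, 23 moved a value beyond its interval and 11 did not. A ratio to shifted positions was computed only for settings of the shares of peaks at paired ends, and none of these ratios fell below 1. The IL-4 share of 0.642% became 0.369% with a window of 0.5 kb, 1.21% with 2 kb, 2.11% at q of at most 0.05, 14.2% at −log10 q of at least 5, 0.797% with the list cut to the length of the untreated one, and 0.589% without Gm, LOC and Rik models. It was 0.815% with at least 4 fragments, a setting chosen after seeing the data. Ratios to shifted positions were 4.15, 1.88, 8.60, 53.3, 3.33, 2.67 and 3.39 in that order. The untreated share became 0.164% (0.5 kb), 0.718% (2 kb), 0.386% (q of at most 0.05) and 0.714% (−log10 q of at least 5), with ratios of 1.95, 1.13, 1.68 and 5. The ratio of 5 rests on 1 of 140 peaks (interval of the share 0.126 to 3.93%), and shifted shares there reached 0.714%. The overlap of members by untreated peaks became 10.7% when the shorter peak had to be covered to at least 50%, 3.34% with untreated peaks at q of at most 0.05, 16.2% with 0.5 kb, 9.52% with 2 kb, and 32.2% for members of at least 8 fragments, also chosen after seeing the data. The median width became 400 bp (q of at most 0.05), 588.5 bp (−log10 q of at least 5), 290 bp (0.5 kb) and 218 bp (2 kb). With ends up to 2 kb apart, 61.0% of head-to-head, 22.3% of tandem and 13.7% of tail-to-tail pairs held an IL-4 peak. Total depth was unknown, and most peaks rest on few fragments, so the absence of an untreated peak is an absence at this depth only.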
